A study of Mus musculus with 6 samples.

Results

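Clade B serpins are intracellular members of the serpin family of protease inhibitors. An inhibitory serpin offers its target protease an exposed reactive loop as bait, is cleaved there and traps the protease in an inactive complex. In mouse the genes lie in a pair of clusters. The cluster on chromosome 1 holds genes known from squamous epithelium, which lines the esophagus, and the cluster on chromosome 13 holds the multiplied families of Serpinb1, Serpinb6 and Serpinb9, several of which are known from leukocytes. Their known targets include cathepsins, urokinase, granzyme B and the elastase of neutrophils.

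The genes were taken as all non-control probes whose gene name on the array starts with Serpinb. These were 37 of 41174 probes, for 26 genes. On mouse build mm9, 18 probes of 12 genes lay on chromosome 1 between 108778585 and 109504790, a span of 0.726 Mb. The other 19 probes, of 14 genes, lay on chromosome 13 between 32934722 and 34078809, a span of 1.14 Mb. The choice rule reads gene names and no measured value.

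The study compared RNA labelled as esophageal epithelium of adult mice on 6 arrays of 2 colours. The wild type group was 3 arrays of C57BL/6J mice, and the knockout group was 3 arrays of K5Cre;Pax9 loxp/loxp mice, for which the labels also give C57BL/6J as the background. In these a Cre recombinase under a keratin 5 promoter, active in basal cells of stratified epithelium, recombines a floxed Pax9, the gene of a paired-box transcription factor. Esophagus RNA was in Cy5 on every array. Cy3 carried Agilent's Universal Mouse Reference RNA, from 11 mouse cell lines, as a common reference with no dye swap. The extracts are described as biological replicates, but the number of animals behind each is not given, so p-values measure only the spread between these extracts.

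A ratio here is log2 of Cy5 over Cy3, and a difference is the mean ratio of the knockout arrays minus that of the wild type arrays. All values are of arrays by their label, because the Pax9 probe did not read lower on the arrays labelled knockout. Its mean ratio was 6.77 ± 0.05 in the knockout group against 6.04 ± 0.30 in the wild type group (SD, n = 3 each), a difference of 0.73 (limma adjusted p = 0.071). Whether the Pax9 probe lies inside the deleted part was not analysed here. Wild type arrays shared a slide and knockout arrays shared another, so slide and group cannot be told apart. In bulk RNA, fewer cells of a type and less RNA per cell cannot be told apart either.

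Between 67.9% and 77.7% of spots per array were well above background in Cy5. Probes for the esophageal keratins Krt4 and Krt13 and other suprabasal genes had mean ratios of 2.39 to 7.29, and all 7 were tested. Skeletal muscle genes were also present, at mean ratios of 2.96 to 5.39 over 12 tested probes, so the RNA held muscle as well as epithelium. Knockout array 2 had the highest muscle signal, with a summed Cy5 signal of 1020000 over the 12 probes against 15800 to 180000 on the other 5 arrays.

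Of the 37 probes, 33 of 23 genes were tested, that is, well above background in Cy5 on all 3 arrays of at least 1 group. Past an adjusted p of 0.05 lay 1 of these 33, for Serpinb1b, which was higher on the knockout arrays. Over all 30476 tested probes, 4.18% passed, 2.39% higher and 1.79% lower, so the family's share was near the background. An unadjusted p under 0.05 was reached by 4 of the 33 probes, against 23.3% of all probes. The groups did not overlap in 6 of the 33, all higher on knockout arrays, against 15.5% of all probes higher and 14.9% lower. All of these 6 but the Serpinb1c probe A_52_P493477 were tested only through the knockout arrays, so the filter favoured their direction. The median difference was 0.12 over the 33 probes and -0.003 over all tested probes.

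**Figure D1:**
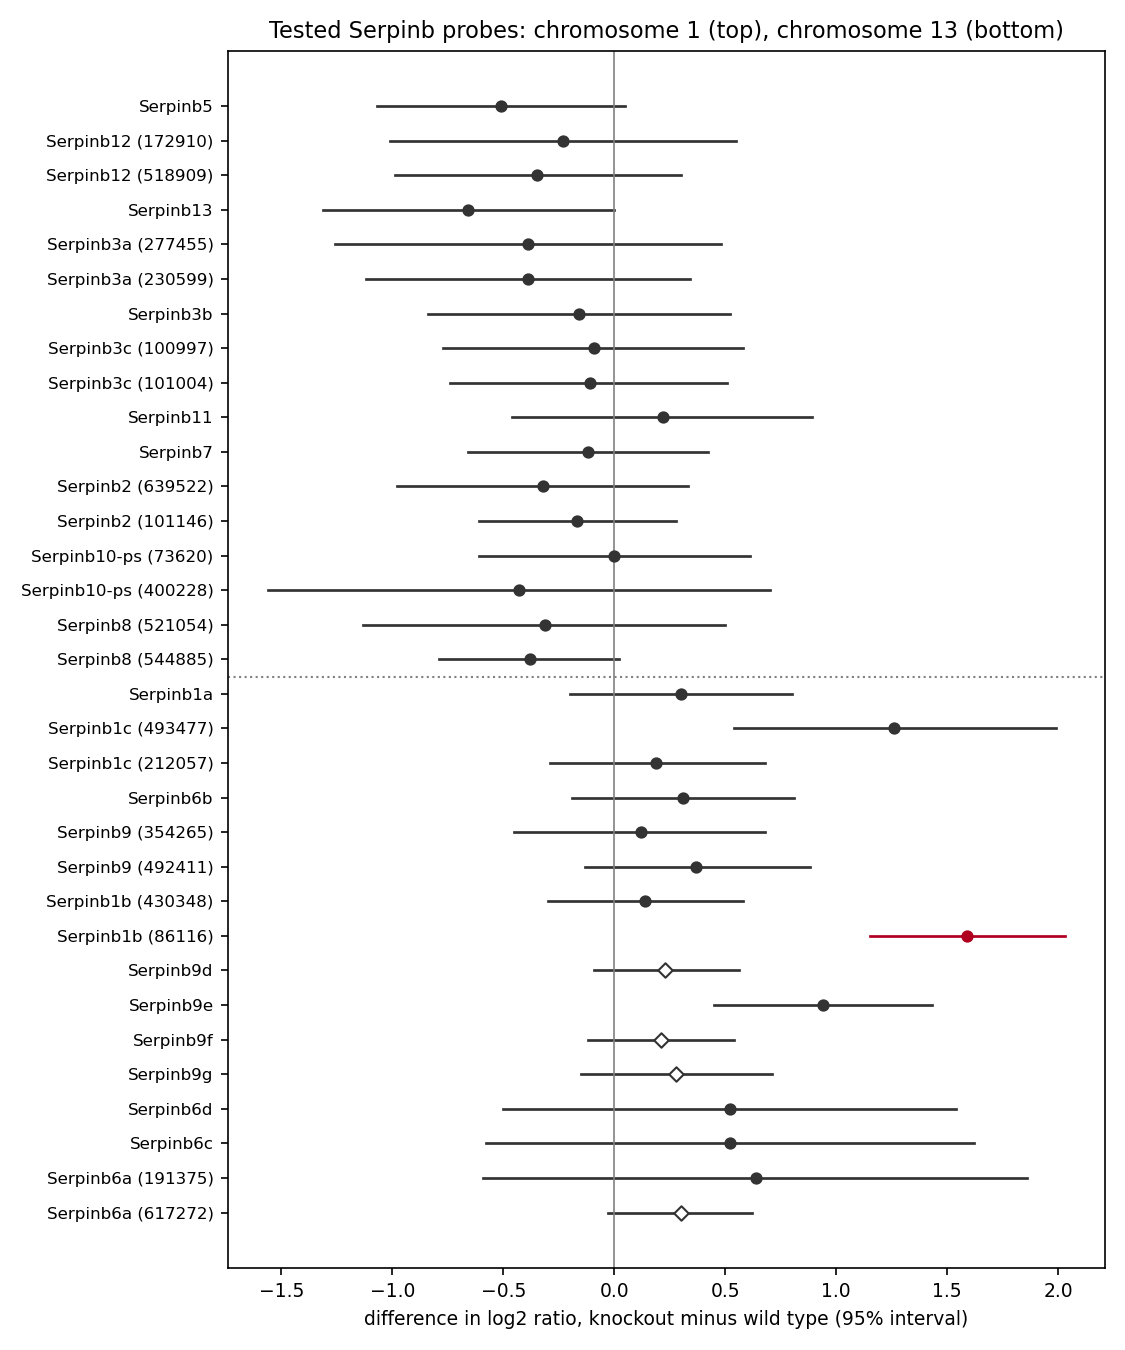
Difference in log2 ratio, knockout minus wild type, of the 33 tested Serpinb probes in genome order on each chromosome, with 95% confidence intervals from limma. The red point passed the adjusted threshold, and open diamonds are probes not well above background on any wild type array. On chromosome 13 all 16 points lie above 0, on chromosome 1 only 1 of 17 does, and 1 probe of Serpinb1b passed. Digits after a gene name are the end of the probe's name.

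The direction of the differences was split by chromosome. On chromosome 13 all 16 tested probes had a difference above 0, with a median of 0.31, while on chromosome 1 a single one of 17 did, Serpinb11, and the median was -0.31. Over all tested probes, 49.7% had a difference above 0. On chromosome 13, 6 of the 16 were tested only because they were well above background on all 3 knockout arrays, the Serpinb1b probe A_52_P86116 and that of Serpinb9e among them, so their direction was favoured by the filter. The other 10, well above background on all 6 arrays, were all above 0, with a median of 0.34. The split on chromosome 1 changed with the scaling and with single arrays. With each array centred on its median in place of loess, 9 of 17 probes were above 0 and the median was 0.04, while on chromosome 13 the count was 13 of 16. Without knockout array 2, 5 of 17 on chromosome 1 were above 0 with a median of -0.04, and 14 of 16 on chromosome 13. Without wild type array 1 the chromosome 1 count was 5 of 17 with a median of -0.23, and with the deposited log ratio 5 of 17 with a median of -0.14. The contrast between the chromosomes was not tested.

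Serpinb1b belongs to the Serpinb1 family, named after the inhibitor of neutrophil serine proteases that Serpinb1a encodes in mouse leukocytes. The called probe, A_52_P86116, lies at chromosome 13, 33185999 to 33186058. Its ratios were -0.27, -0.57 and -0.33 on the wild type arrays and 0.97, 1.12 and 1.51 on the knockout arrays. The groups did not overlap, and every knockout array read above 0 and every wild type array below. The means were -0.39 ± 0.15 and 1.2 ± 0.28 (SD, n = 3 each), and the difference was 1.59 (SE 0.19, 95% interval 1.15 to 2.03, limma adjusted p = 0.012), a 3.01-fold higher ratio.

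The higher ratio came with a brighter Cy5 channel, and the probe was dim on the wild type arrays. Background-subtracted Cy5 signals were 14, 11 and 46 on wild type arrays and 154, 204 and 265 on knockout arrays. The Cy3 reference signals were 122, 119 and 115 against 137, 144 and 140, so the reference moved far less, although its groups did not overlap either. On wild type, 2 of 3 arrays were well above background, so the probe was tested only through the knockout arrays, where it was high. The adjusted p lay above the threshold with median centring (difference 1.06, adjusted p = 0.083), without wild type array 1 (1.65, adjusted p = 0.06) and without knockout array 3 (1.43, adjusted p = 0.06).

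The other probe of Serpinb1b did not follow it. A_52_P430348 starts at base 585 of the transcript it was designed on and lies at chromosome 13, 33183225 to 33183284. Its ratios were 3.43, 2.96 and 3.37 on wild type arrays and 3.38, 3.22 and 3.58 on knockout arrays. The groups overlapped. The difference was 0.14 (SE 0.19, 95% interval -0.30 to 0.58, limma adjusted p = 0.69), and the interval ends below that of A_52_P86116. The 2 probes of the gene therefore disagreed on a change, although neither read lower on the knockout arrays.

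The Serpinb1c probes also differed in size, although neither passed and their 95% intervals overlapped. Their sequences on the array are shown with that of A_52_P430348 because the paralogues are measured by probes in different places, and a probe's reading holds for its own 60 bases. All 3 are given as the array lists them, 5′ to 3′.
Serpinb1b A_52_P430348: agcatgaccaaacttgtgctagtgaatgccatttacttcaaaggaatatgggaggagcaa
Serpinb1c A_52_P493477: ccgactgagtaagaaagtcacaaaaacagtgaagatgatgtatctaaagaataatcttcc
Serpinb1c A_51_P212057: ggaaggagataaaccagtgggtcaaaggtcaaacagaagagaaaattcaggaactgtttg

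Of the Serpinb1c probes, A_52_P493477 read 1.88, 1.48 and 2.51 on wild type arrays and 2.86, 3.17 and 3.63 on knockout arrays. The groups did not overlap, but the difference of 1.26 (SE 0.31, 95% interval 0.54 to 1.99) had a limma adjusted p of 0.067. With the replicate number as a block, its adjusted p was 0.018. The difference was smaller with background-subtracted signals (0.50, adjusted p = 0.34), the deposited log ratio (0.38, adjusted p = 0.57) and median centring (0.73, adjusted p = 0.25). Its reference signal also rose, from 48, 44 and 67 on wild type arrays to 93, 226 and 189 on knockout arrays, and the part of this in the result was not tested. A_51_P212057, which lies 5′ of it in the transcript, gave 0.19 (SE 0.21, 95% interval -0.29 to 0.68, limma adjusted p = 0.62).

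Serpinb1a, which encodes the best studied inhibitor of the family, has a single probe. Its ratios were 3.13, 2.90 and 3.49 on wild type arrays and 3.58, 3.17 and 3.66 on knockout arrays. The groups overlapped, and the difference was 0.30 (95% interval -0.20 to 0.80, limma adjusted p = 0.44). Elane, which encodes the neutrophil elastase that Serpinb1a is known to inhibit, was not well above background on any array.

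**Figure D2:**
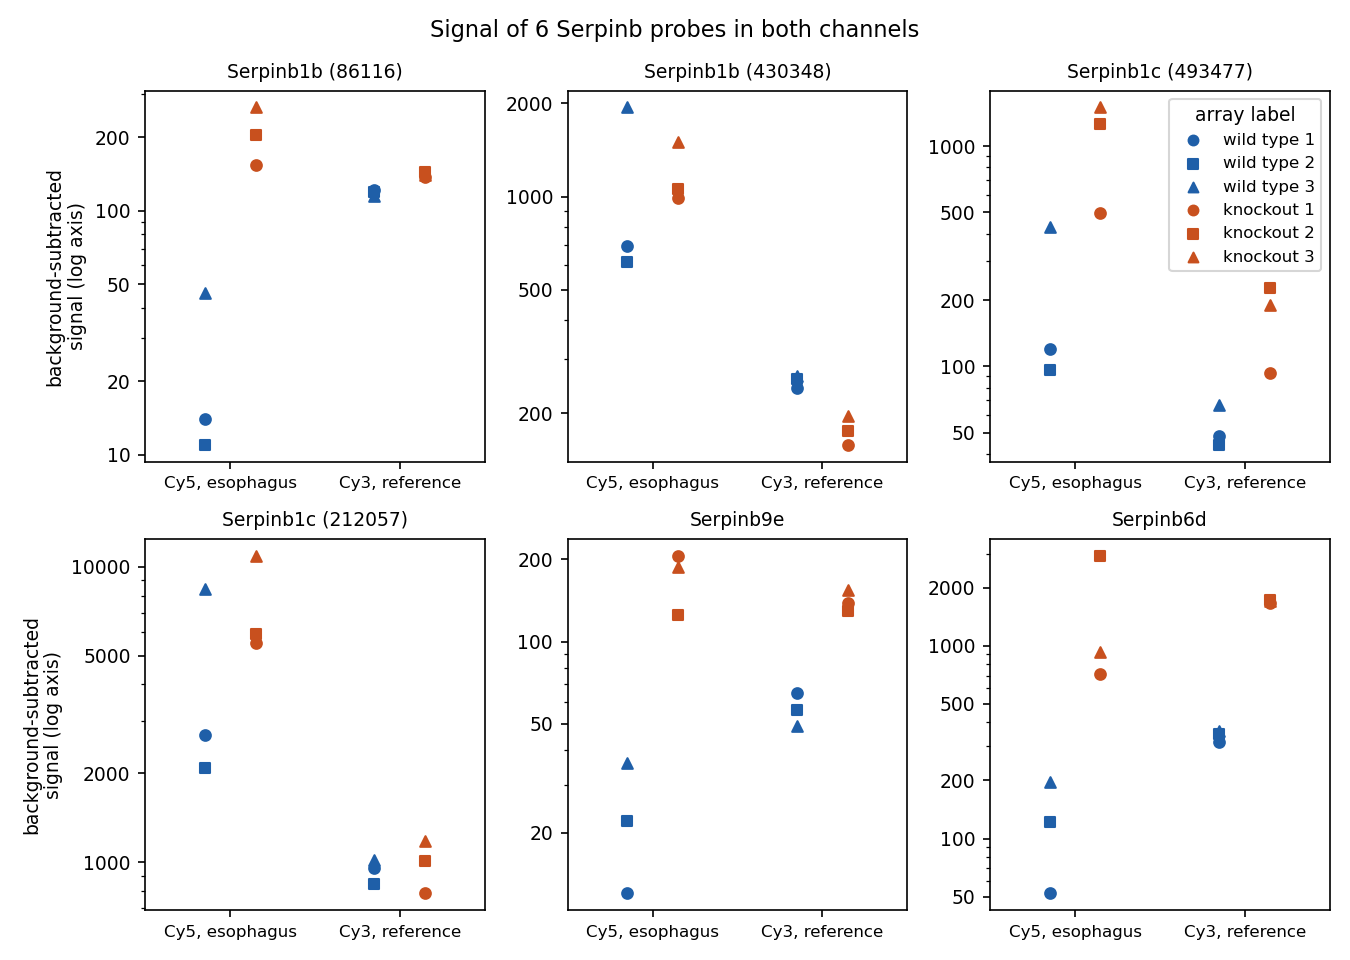
Background-subtracted signal, on a log axis, of 6 Serpinb probes in Cy5 (esophagus) and Cy3 (reference) on each of the 6 arrays, marked by label and replicate number. For Serpinb1b, A_52_P86116 is brighter in Cy5 on knockout arrays while Cy3 changes little, and for Serpinb6d and Serpinb9e both channels are higher on the knockout arrays.

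Serpinb9 is known as an inhibitor of granzyme B, the serine protease of cytotoxic lymphocytes, and mice carry many paralogues of it. The probes of Serpinb9d, Serpinb9e and Serpinb9f sit at like places in their transcripts, and their sequences are shown because 1 RNA could bind several of them. Capitals mark the bases that stand alike in all 3 once they are aligned, 30 in each.
Serpinb9d A_51_P219424: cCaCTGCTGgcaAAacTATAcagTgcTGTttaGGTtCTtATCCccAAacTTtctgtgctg
Serpinb9e A_51_P459128: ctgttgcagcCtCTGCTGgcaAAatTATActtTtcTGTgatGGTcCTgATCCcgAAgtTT
Serpinb9f A_52_P31750: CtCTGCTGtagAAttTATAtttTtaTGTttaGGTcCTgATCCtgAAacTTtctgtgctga

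The array's annotation lists the Serpinb9f and Serpinb9g probes under both genes, so their reads are uncertain between them. Serpinb9e had the smallest adjusted p of the Serpinb9 probes in the reported fit, with ratios of -0.05, -0.03 and 0.03 on wild type arrays and 1.29, 0.54 and 0.94 on knockout arrays. The groups did not overlap. The difference of 0.94 (SE 0.21, 95% interval 0.45 to 1.43) had a limma adjusted p of 0.054, and of 0.04 with the replicate number as a block. With median centring it was 0.24 (adjusted p = 0.61). Cy5 signals were 12, 22 and 36 against 206, 125 and 187, and Cy3 signals 65, 56 and 49 against 139, 130 and 155, so the common reference was higher on the knockout arrays too.

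Serpinb9d, Serpinb9f, Serpinb9g and the Serpinb6a probe A_52_P617272 were well above background on all 3 knockout arrays and on no wild type array. This held for 4 of the 37 Serpinb probes and 2.43% of all probes on the array, and the reverse for 0 of the 37 and 1.53%. Their normalized Cy5 was 1.39-fold, 1.45-fold, 1.27-fold and 1.43-fold higher on knockout arrays, in that order. The limma adjusted p-values for the ratio were 0.36, 0.40, 0.40 and 0.25. A wild type signal entered these folds as the lowest signal well above background on its array only where it lay below that. For Serpinb9f, Serpinb9g and Serpinb6a the folds equalled the plain Cy5 differences of 0.53, 0.35 and 0.51 on the log2 scale, so they are not lower bounds. The folds were taken after loess and Aquantile and are open to dye bias. They hold for Cy5 alone. The ratio was only 1.18-fold, 1.16-fold, 1.21-fold and 1.23-fold higher, in the same order. Mean Cy3 signals of the reference were also higher on knockout arrays, without overlap, for Serpinb9d (1.8-fold), Serpinb9f (1.55-fold) and Serpinb6a (1.7-fold), while those of Serpinb9g overlapped. With median centring the ratio differences of Serpinb9d, Serpinb9f and Serpinb6a read -0.23, -0.22 and -0.16, and that of Serpinb9g 0.02.

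Both Serpinb9 probes were dim and neither passed. Their differences were 0.12 (95% interval -0.45 to 0.68, limma adjusted p = 0.80) and 0.37 (95% interval -0.13 to 0.88, limma adjusted p = 0.34). Gzmb, the gene of granzyme B, gave 0.27 (limma adjusted p = 0.33), with the groups not overlapping. It was dim, not well above background on any wild type array, and so was tested only through the knockout arrays. Serpinb9b and Serpinb9c were not tested.

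No probe of the leukocyte marker lists passed the test as higher. Lower on knockout arrays were Cd207, a marker of Langerhans cells (-3.35, limma adjusted p = 0.01), Itgax, an integrin of dendritic cells (-1.63, limma adjusted p = 0.013, with its other probe at 0.16), and Cd3d, a chain of the T cell receptor complex (-1.0, limma adjusted p = 0.018). Cd3e, another chain of that complex, went the other way at 0.54 (limma adjusted p = 0.14), with the groups not overlapping. Differences of 2 of the 7 tested T and NK probes lay above 0. Of the 7 neutrophil marker probes tested 0 passed, of the 12 macrophage and dendritic probes 2, and of the 7 T and NK probes 1. Over all tested probes 4.18% passed. Medians of the lists were 0.10, -0.40 and -0.35. Of the 6 mast cell probes 0 passed, with a median of -0.62. Their part in the Serpinb1 and Serpinb9 readings was not tested.

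The reference channel differed between the labels in some of these probes and across the array, though a lower Cy3 was less frequent among the Serpinb probes. Cy3 holds the same RNA on all arrays, yet 7 of 33 tested Serpinb probes had Cy3 signals on knockout arrays that all lay above those on wild type arrays, and 6 had them all below. Over all tested probes with Cy3 values these shares were 18.2% and 43.5%. A Cy3 difference of at least 1 on the log2 scale in size was seen in 1 Serpinb probe, for Serpinb6d, and in 1.8% of all probes.

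**Figure D3:**
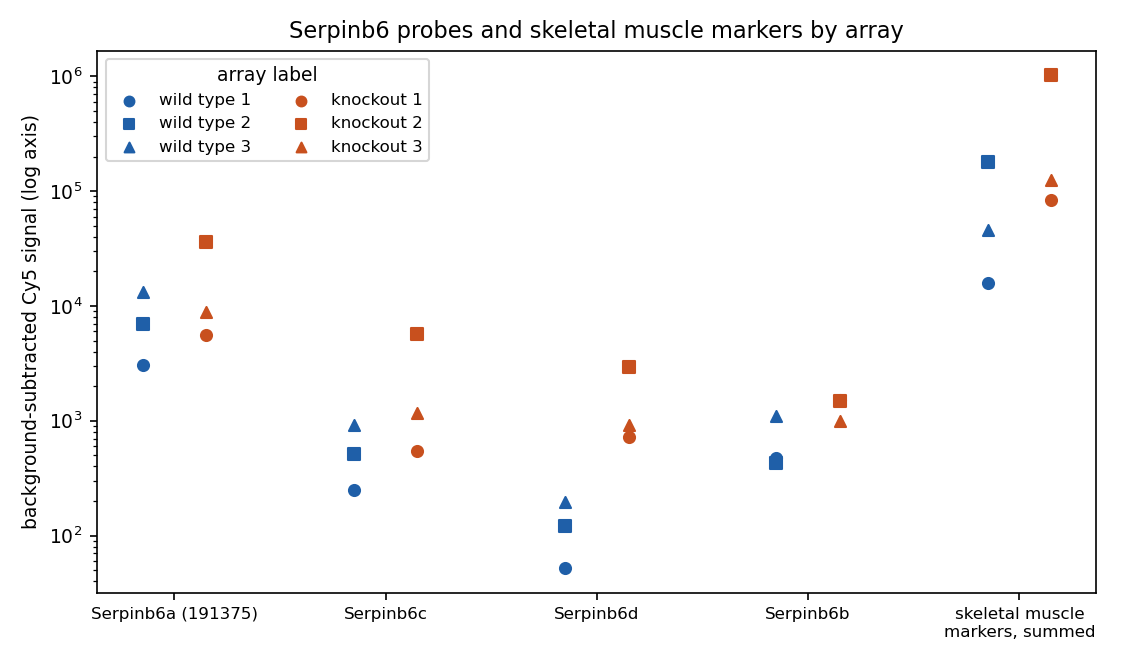
Background-subtracted Cy5 signal, on a log axis, of 4 Serpinb6 probes and of the 12 skeletal muscle marker probes summed, on each array by label and replicate number. Knockout array 2 is the highest array for Serpinb6a, Serpinb6c and Serpinb6d, and it is also the highest for muscle. The points of knockout arrays 1 and 2 coincide for Serpinb6b. Digits after a gene name are the end of the probe's name.

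In the ratios of Serpinb6a A_51_P191375, Serpinb6c and Serpinb6d, 1 knockout array stood above the rest. Serpinb6a is a broadly expressed inhibitor of cathepsin G and related proteases, and its probe A_51_P191375 read -1.76, -0.73 and -1.08 on wild type arrays and -1.11, 0.66 and -1.20 on knockout arrays. Serpinb6c read -0.76, 0.00 and -0.66 against -0.59, 1.14 and -0.43. Serpinb6d read -0.04, 0.47 and -0.04 against 0.07, 1.70 and 0.17.

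In all 3 genes, the ratio of array 2 was the highest of its group under either label. The differences were 0.64 (SE 0.52), 0.52 (SE 0.47) and 0.52 (SE 0.43), with limma adjusted p-values of 0.50, 0.54 and 0.51. Without knockout array 2 they were 0.03, -0.03 and -0.01. The summed Cy5 signal of the 12 skeletal muscle probes was also highest on array 2 of each label, at 15800, 180000 and 45600 on wild type arrays and 84200, 1020000 and 124000 on knockout arrays. Their median difference was 1.22, and 1 of 12, the Myh2 probe A_52_P582746, passed the test as higher, against 2.39% of all tested probes. That Myh2 probe did not follow the sum, with Cy5 signals of 164, 158 and 697 on wild type arrays and 1060, 916 and 1230 on knockout arrays, the lowest of each label on array 2. The part of muscle RNA in the Serpinb6 readings was not tested.

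For Serpinb6d both channels, the reference included, changed greatly between labels. Its Cy3 signals were 315, 348 and 359 on wild type arrays and 1660, 1720 and 1710 on knockout arrays, 4.99-fold higher, although the reference RNA was the same. Its Cy5 signals were 52, 122 and 197 against 717, 2920 and 923, and they too did not overlap. In Cy5 alone its difference was 2.7 (limma adjusted p = 0.0048), in a setting where 29.2% of all probes passed. Serpinb6b, the last of these paralogues, gave 0.31 (SE 0.21, limma adjusted p = 0.41). The third Serpinb6a probe, A_52_P217690, was not tested.

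The chromosome 1 cluster was far brighter in esophagus than in the reference, and none of its 17 tested probes passed the test. Their mean ratios ran from 1.59 to 8.80. Serpinb3d, its only untested probe, was not well above background on all arrays of either label. Differences ran from -0.66 to 0.22. The 7 esophageal suprabasal probes moved by a like amount, with a median of -0.34 and none of them past the test. The 10 epidermal cornified probes had a median of -0.70 with 2 past the test, lower, for Flg2 and Krt1. Over all tested probes 1.79% passed as lower. In 5 of the 10 the groups did not overlap, lower on knockout arrays, against 14.9% of all tested probes. The other probe named Krt1 read -0.03 (limma adjusted p = 0.95). It is placed on the opposite strand to the called one and was dim, with Cy5 signals of 55.8 to 324. The part of these lists in the Serpinb readings was not tested.

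**Figure D4:**
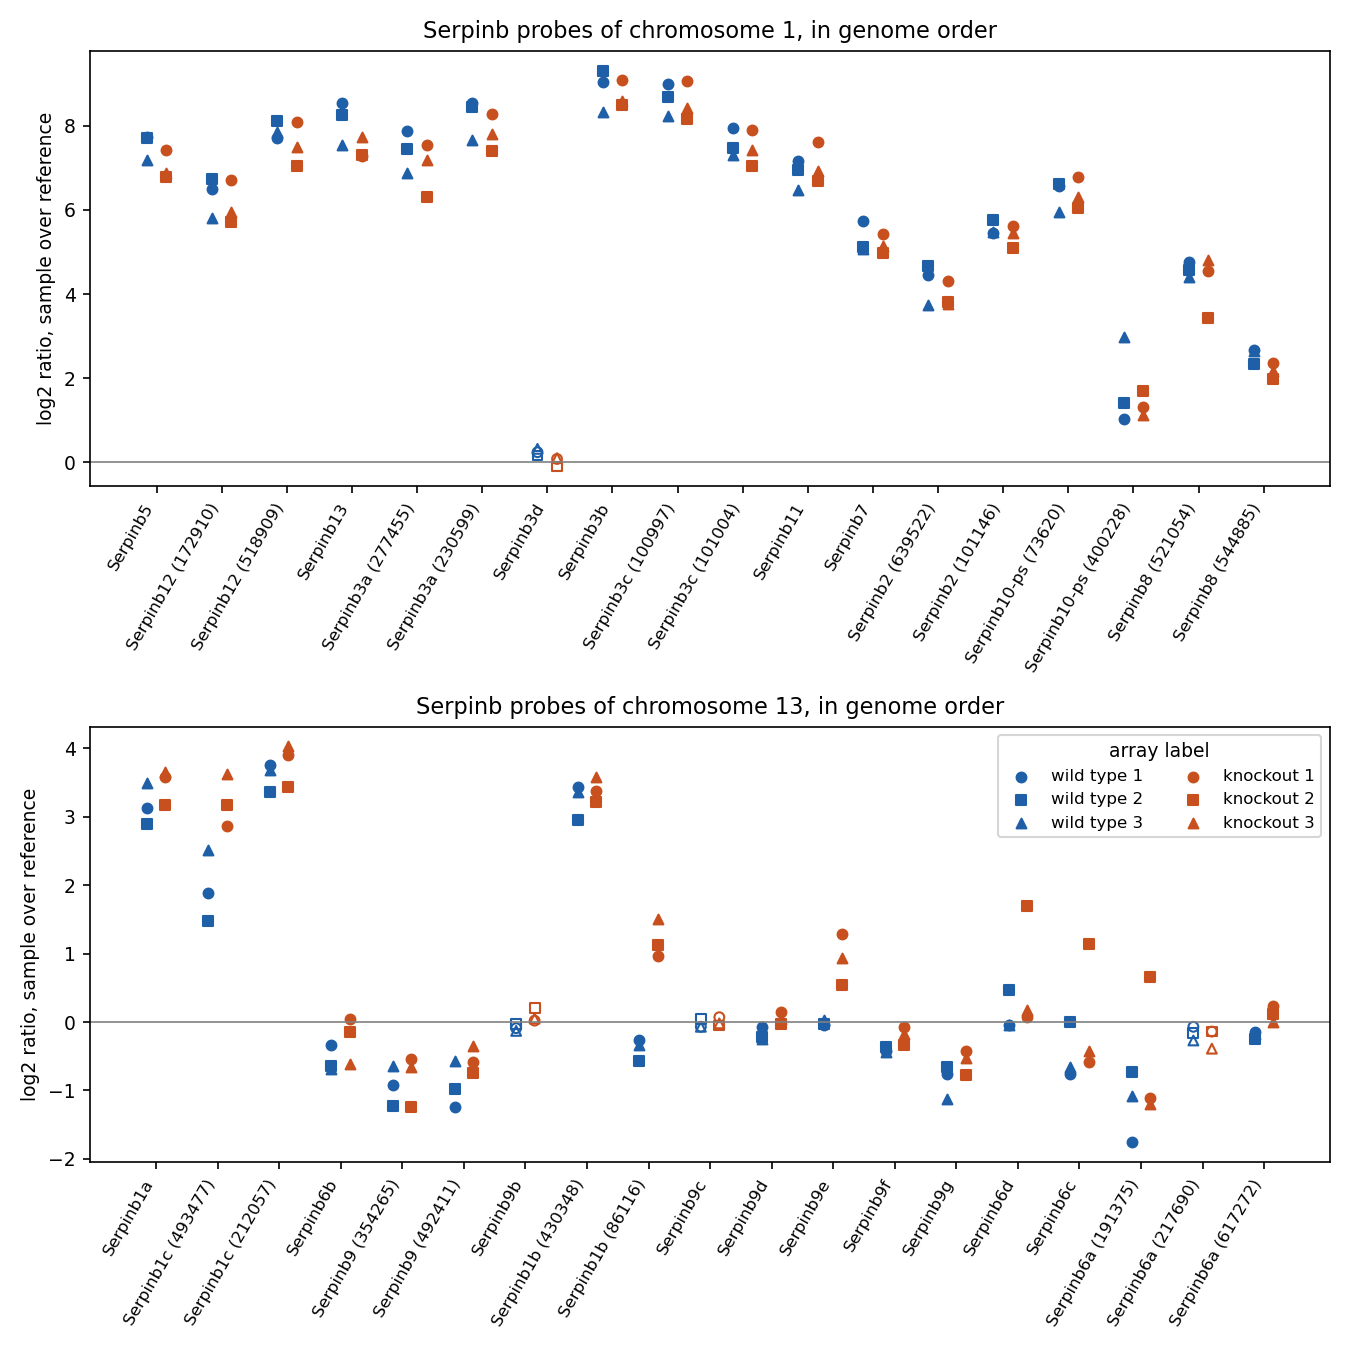
Log2 ratio of esophagus over reference for all 37 Serpinb probes on each of the 6 arrays, in genome order, with colour for the label and marker shape for the replicate number. Open markers are the 4 probes that were not tested. The chromosome 1 probes other than Serpinb3d lie above 0 on every array, with both labels overlapping. Digits after a gene name are the end of the probe's name.

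Serpinb13 and Serpinb5 had the most negative differences of the cluster, and neither passed. Serpinb13, known in human as an inhibitor of cathepsins L and K, read 8.53, 8.25 and 7.53 on wild type arrays and 7.29, 7.31 and 7.74 on knockout arrays. The difference was -0.66 (95% interval -1.31 to 0.00, limma adjusted p = 0.21), and the groups overlapped through knockout array 3. Serpinb5, or maspin, which is not an inhibitor of proteases, read 7.74, 7.70 and 7.18 against 7.42, 6.79 and 6.88.

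The Serpinb5 groups overlapped through knockout array 1, and the difference was -0.51 (95% interval -1.07 to 0.05, limma adjusted p = 0.25). In Cy5 alone, without the reference, the Serpinb5 difference was -0.81 with a limma adjusted p of 0.029, in a setting where 29.2% of all probes passed. In the ratio fit, Ctsl, the gene of cathepsin L, fell by 1.85 (limma adjusted p = 0.024), and in Cy5 alone its difference was -1.45.

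The Serpinb3 genes are the mouse relatives of the human squamous cell carcinoma antigens, which inhibit cathepsins and related proteases. Their probes cannot be assigned cleanly, since the array lists the probe A_51_P230599 under Serpinb3a and Serpinb3c, A_51_P207763 under Serpinb3a and Serpinb3b, and A_51_P101004 under Serpinb3b and Serpinb3c. A pair of them are shown beside the Serpinb3a probe listed under that gene alone.
Serpinb3a A_52_P277455: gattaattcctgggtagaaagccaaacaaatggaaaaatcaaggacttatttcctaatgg
Serpinb3a A_51_P230599: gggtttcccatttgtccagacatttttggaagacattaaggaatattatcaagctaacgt
Serpinb3c A_51_P101004: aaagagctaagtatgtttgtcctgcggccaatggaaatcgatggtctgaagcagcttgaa

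The 5 tested Serpinb3 probes had differences from -0.39 to -0.09. For Serpinb3a the probe A_52_P277455 read 7.87, 7.44 and 6.88 on wild type arrays and 7.53, 6.30 and 7.19 on knockout arrays, with the groups overlapping. It and A_51_P230599 each gave -0.39, with limma adjusted p-values of 0.57 and 0.48.

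The other chromosome 1 genes are likewise known from keratinocytes or leukocytes. Serpinb2, the intracellular urokinase inhibitor also known as plasminogen activator inhibitor type 2, gave -0.32 and -0.17 in its 2 probes (limma adjusted p = 0.52 and 0.64), and Plau, the gene of urokinase, -0.17 and 0.02. Serpinb12, an epithelial inhibitor of trypsin-like proteases, gave -0.23 and -0.35 (limma adjusted p = 0.71 and 0.49), and St14, the gene of the epithelial membrane protease matriptase, 0.18 and 0.32. None of these 8 probes passed, and the 95% intervals of the 4 Serpinb ones all held 0.

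Serpinb7 and Serpinb8 are genes in which human loss-of-function variants cause disorders of the cornified layer. Serpinb7 gave -0.12 (95% interval -0.66 to 0.42, limma adjusted p = 0.79). Serpinb8 gave -0.31 and -0.38 in its 2 probes (limma adjusted p = 0.63 and 0.24). Serpinb11 was the only one above 0, at 0.22 (95% interval -0.46 to 0.89, limma adjusted p = 0.69).

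Serpinb10, known from haematopoietic cells, is listed on the array as Serpinb10-ps. Its 2 probes gave 0.00 and -0.43 (limma adjusted p = 1.0 and 0.63). The second read 1.04, 1.41 and 2.97 on wild type arrays and 1.32, 1.69 and 1.12 on knockout arrays. Wild type array 3 stood above the other 5 there, and without it the difference was 0.15.

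**Figure D5:**
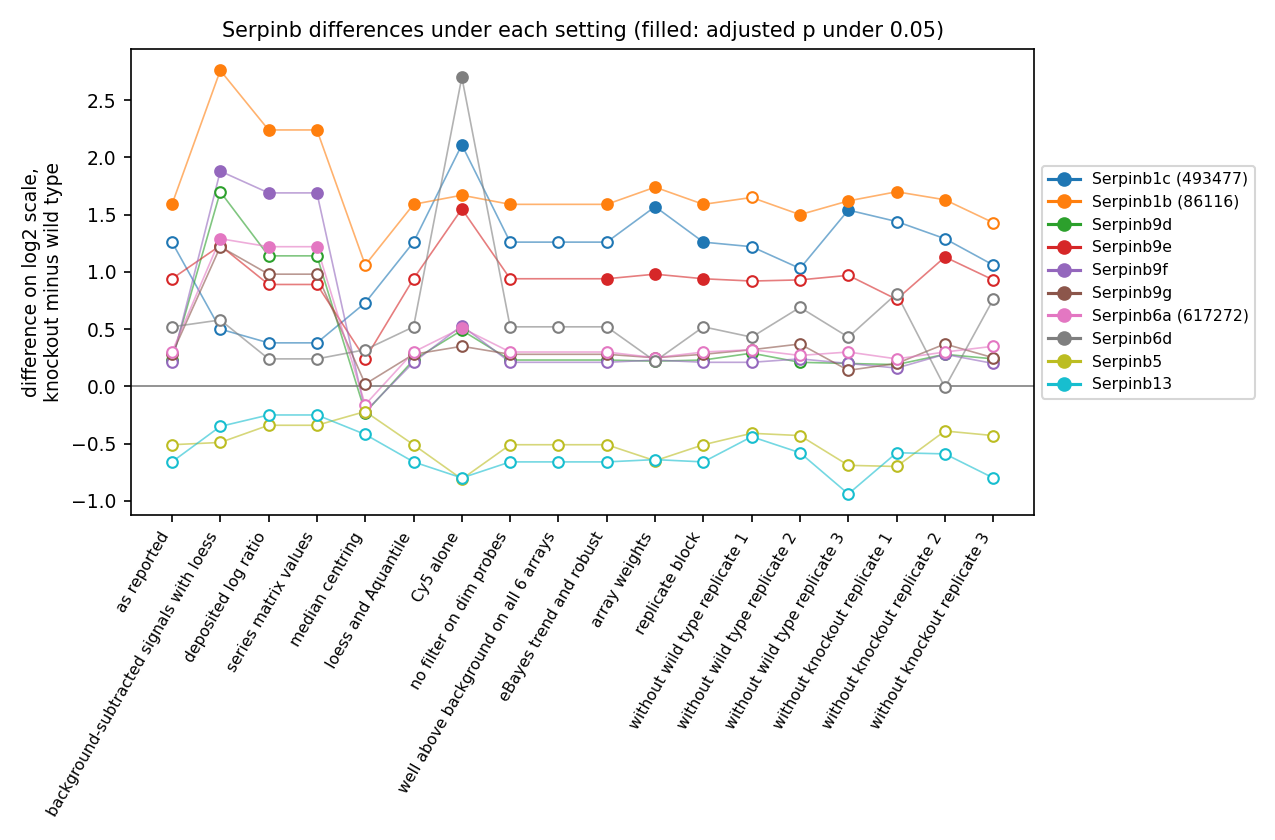
Difference in log2 ratio, knockout minus wild type, of the leading Serpinb probes under the reported processing and each alternative. Filled points passed the adjusted threshold in that setting, and lines only join the points of a probe. The Serpinb1b probe A_52_P86116 lies between 1.06 and 2.76 in every setting that tested it.

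How many Serpinb probes passed, of 33 unless another number is given, depended on the processing, and so did the share of all probes. With background-subtracted signals 3 passed (4.42% of all tested probes), with the deposited log ratio 3 (2.39%), with the matrix values 3 (2.34%), with median centring 0 (0.456%) and in Cy5 alone 8 (29.2%). Without a filter on dim probes 1 of 37 passed (3.96%). With all 6 arrays well above background 0 of 27 did (2.74%), but the Serpinb1b probe A_52_P86116 was not among those 27. With trended and robust variances 2 passed (5.84%), with array weights 3 (12.8%) and with the replicate block 3 (7.39%). Leaving out wild type array 1 or knockout array 3 gave 0 (0.354% and 0.128%), and leaving out wild type array 3 or knockout array 2 gave 2 (3.65% and 2.74%). With the probes of a gene averaged, 2 of 23 genes passed (5.84%), Serpinb1b and Serpinb9e. Under the deposited log ratio, Serpinb9f at 1.69 (limma adjusted p = 0.041) and Serpinb6a A_52_P617272 at 1.22 (limma adjusted p = 0.029) were among the 3.

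Genes around the clusters were fitted in the same way, as a description of the surroundings. The 15 tested probes within 1000000 bases of the chromosome 1 cluster had a median difference of 0.16, and none passed. The 24 around the chromosome 13 cluster had a median of -0.02, and 1 passed, for Ripk1, a kinase of cell death signalling, at -1.0 (limma adjusted p = 0.031). Inside the chromosome 13 cluster, 1 of 4 probes of other genes passed, for 1110046J04Rik, at 0.87 (limma adjusted p = 0.03). It was well above background on only 2 wild type arrays, so it was tested only through the knockout arrays and the filter favoured its direction. Over all tested probes 4.18% passed.

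Serpin genes of other clades had 29 tested probes, with 2 higher, 0 lower and a median of -0.03. Over all tested probes 2.39% passed as higher and 1.79% as lower. Serpina1d, which encodes a secreted antitrypsin of mouse, was higher by 1.65 (limma adjusted p = 0.023). Serpini2, not well above background on any wild type array, had a ratio difference of 0.69 (limma adjusted p = 0.045), or 1.61-fold. Its normalized Cy5 alone was at least 2.08-fold higher, and its Cy3 reference was also higher, by 0.41 on the log2 scale. Of 51 tested probes for proteases that clade B serpins inhibit or could meet in epithelium and leukocytes, 0 were higher and 3 lower, with a median of -0.17. Besides Ctsl these were Klk4, a kallikrein, at -1.20 (limma adjusted p = 0.024), and Tmprss11e, a membrane serine protease of squamous epithelium, at -1.91 (limma adjusted p = 0.048).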

How the data were processed

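Per the file headers, the intensity values in the scanner files are linear and come from Agilent Feature Extraction 10.7.3.1, with array design 014868 (9.1 per the submitters' processing notes), and a log10 ratio deposited by the authors. The deposited series matrix holds log2 values, which ran opposite to the scanner ratios (correlations of -0.993 to -0.996) and were turned. The sources used here do not state how they were centred. Starting at the intensities, normexp background correction (offset 50), loess within arrays with control spots at weight 0, removal of outlier flags (55 to 164 spots an array) and averaging of spots gave 41174 probes. No spot was saturated. limma 3.58.1 in R 4.3.3 (lmFit, eBayes, two-sided, no covariate) fitted all 30476 tested probes, with Benjamini-Hochberg adjustment over them. Positions are those of the files, on mm9. RefSeq accessions matched 34 of 37 Serpinb probes. An exact permutation test of 3 against 3 cannot go below p = 0.1, and the number of arrays limits the precision.

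The genes and lists were chosen with earlier results of these data known. Named are probes past the threshold or at least 1 in size, 12 Serpinb genes whatever their result, proteases, other serpins and neighbours past the threshold, and Ctsl, Plau, Gzmb, Elane, St14 and Pax9. Serpinb3b to Serpinb3d, Serpinb9b to Serpinb9g, Serpinb6c, Serpinb6d and Serpinb6b were named after their values were seen. Deviations of same-numbered arrays correlated at 0.17, 0.51 and 0.34, each over 0.1. The numbers were therefore taken as pairs, on the data alone, in the replicate block alternative only and not in the reported fit. Among arrays of different number the highest was 0.16, so the first pair stood out little. Alternatives covered background, scaling, filter, variance model, replicate block, left-out arrays and averaging of probes. The fit was tested on simulated data.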

Additional observations from a re-analysis of the deposited data

How the results depend on the processing

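The 6 arrays, without a dye swap and with slide and group confounded, limit every value, and Serpinb probes near background in Cy5 on wild type arrays depend most on the background correction. Calls among the 33 Serpinb probes, 1 as reported, were 3 each with background-subtracted signals, deposited ratio and matrix, 0 with median centring and 8 in Cy5 alone. With trended robust variances they were 2, with array weights 3 and with the replicate block 3. With all 6 arrays well above background 0 of 27 passed, but A_52_P86116 was not among those 27. With probes averaged by gene 2 of 23 genes passed. Without 1 array the calls among the 33 ran from 0 to 2. For neighbouring genes, 2 calls as reported became 1, 1, 0, 6, 1 and 6 with the deposited ratio, matrix, median centring, Cy5 alone, all 6 arrays and replicate block, and 0 to 1 without 1 array. For other serpins, 2 became 4, 1, 1, 0, 8, 1 and 5 with background-subtracted signals, deposited ratio, matrix, median centring, Cy5 alone, all 6 arrays and array weights, and 0 to 1 without 1 array. For proteases, 3 became 1, 1, 0, 12, 5, 8 and 5 with the deposited ratio, matrix, median centring, Cy5 alone, trended variances, array weights and replicate block, and 0 to 1 without 1 array. As reported these lists held 43, 29 and 51 tested probes in that order, and 4.18% of all tested probes passed. The share of all probes moved too, to 29.2% in Cy5 alone, 12.8% with array weights, 7.39% with the replicate block and 0.456% with median centring. The chromosome 13 median, 0.31, was 0.61, 0.60, 0.60 and 0.52 with background-subtracted signals, deposited ratio, matrix and Cy5 alone.

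Of 21 probes followed, 11 changed sign in at least 1 setting. Serpinb10-ps A_52_P73620, 0.00 as reported, read 0.01 with background-subtracted signals and in Cy5 alone, 0.12 with the deposited ratio and matrix, 0.20 with median centring, and -0.22 to 0.16 without 1 array. Its other probe, A_51_P400228, read 1.53, 1.35 and 1.35 with background-subtracted signals, deposited ratio and matrix, and -0.82 to 0.15 without 1 array. Serpinb3a A_52_P277455 read 0.05 with the deposited ratio and matrix. With median centring the Serpinb12 probes read 0.07 and 0.10, Serpinb7 0.04, Serpinb2 A_51_P101146 0.09 and Serpinb6a A_52_P617272 -0.16. In Cy5 alone Serpinb7 read 0.59 and Serpinb9 A_51_P354265 -0.43. Without 1 array, Serpinb7 ran from -0.24 to 0.10 (above 0 without wild type array 1), Serpinb9 A_51_P354265 from -0.03 to 0.33 (below 0 without wild type array 2, and at -0.02 without knockout array 1), Serpinb11 from -0.05 to 0.41 (below 0 without knockout array 1) and Serpinb8 A_52_P521054 from -0.59 to 0.10 (above 0 without knockout array 2). The causes were not tested. With the replicate block, besides Serpinb1b, the Serpinb1c and Serpinb9e probes passed and no other Serpinb call changed.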
